A study of Homo sapiens and Mus musculus with 8 samples.

Results

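The genes described here are the Wnt ligands, Frizzled receptors, Dickkopf and secreted Frizzled-related antagonists, and 16 named co-receptors, cytoplasmic components, transcription factors and feedback targets of the Wnt pathway. They were found by symbol (names starting with Wnt, Fzd, Dkk or Sfrp and a number, or equal to a named gene, in either letter case) in 5 deposited comparison tables, and 39 of the 16096 symbols in any table matched. Of the genes given by name, Ror2 and Rnf43 were not analysed here. RNA-seq had been done on 8 samples, 1 per group, from the mouse melanoma line B16N and the human melanoma lines WM983 and UACC257. The B16N groups were wild-type cells exposed to UV and labelled week 2, the same cells labelled week 5, a single clone overexpressing Orai1, which forms the pore of the calcium channel opened by store depletion, and untreated wild-type cells at day 0. The clone was grown after transfection with Orai1-WT-CFP, G418 selection and cell sorting, and was labelled day 0, so its values are those of 1 clone. Each human line had a UV-exposed wild-type sample labelled week 2 and an untreated wild-type sample at day 0. Weeks in culture and UV cannot be told apart in this design.

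Wnt proteins are secreted lipid-modified ligands that bind Frizzled receptors together with the co-receptors Lrp5 and Lrp6, or with Ror receptors in branches that do not use beta-catenin. In the beta-catenin branch, receptor engagement restrains a cytoplasmic complex of Axin, Apc and Gsk3b that otherwise marks beta-catenin for destruction, and beta-catenin then works with Tcf and Lef proteins on target genes. Secreted antagonists and membrane ubiquitin ligases limit the signal. In the pigment cell lineage Wnt signals are known for specifying melanocytes from the neural crest, and in melanoma for the different cell states associated with beta-catenin and with Wnt5a.

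The tables hold a log2 fold change, a test statistic and a p-value for each gene, and neither counts nor levels, so the order of the genes by level and the depth of each library are unknown. The mouse values are given here as treated minus untreated B16N, which is the deposited log2 value with its sign turned. The standard error (SE) is the size of the change divided by that of the test statistic. The SE and the adjusted p-values were computed here from the deposited values. A gene was called at an adjusted p under 0.05 (Benjamini-Hochberg over all usable rows, 14648 for 2 weeks of UV, 14821 for 5 weeks and 15041 for the clone). With 1 sample per group there was no replicate check, and such a p compares libraries, not conditions. The 3 mouse comparisons share 1 control sample, so like changes of a gene in several of them are not independent. All 7 melanocyte markers looked up (Mlana, Pmel, Tyr, Tyrp1, Dct, Mitf and Sox10) had a row with an SE of at most 1 in each mouse table, that of Sox10 with values equal to another symbol's. Of these 7, 4 were higher at 2 weeks, 5 higher and 1 (the value listed under Sox10) lower at 5 weeks, and 2 higher and 1 (Dct) lower for the clone. Of 17 markers of leukocytes, fibroblasts, endothelium and keratinocytes, Lyz2 was the one with an SE of at most 1 in any table. It rose at 5 weeks (3.47, SE 0.70) and in the clone (2.78, SE 0.64) and stood at 0.38 (SE 0.94) at 2 weeks in the authors' deposited tables. Of the 6 leukocyte markers, 2 had a row at 2 weeks, 1 at 5 weeks and 2 in the clone, and no other marker of these 4 cell types passed. Their levels are not in the tables. The part of Lyz2-expressing cells in the results below was not tested. Orai1 itself was not analysed here, so the label of the clone has no check from its own gene.

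A property of the tables decides which Wnt rows can be read. Of the 39 symbols, 19 had values of their own in every table in which they had a row. Another 12 had a log2 change, statistic and p-value equal to all deposited digits to those of the same other symbol or symbols in all 3 mouse tables. For 10 of these the SE was at most 2 in at least 1 table, so the equality was not limited to rows of large SE. These were Wnt2 with Serpinb6a, Wnt5a with Serpine2, Wnt7a with Sdc1, Wnt11 with Sdc3, Fzd10 with Tcf20, Sfrp2 with Npepps and Wnk2, Sfrp4 with Gle1, Tcf7 with Pacsin2, Tcf7l2 with Klhl2 and Nkd1 with Capza2. Which symbol such a value belongs to is not known from the tables, and it is written below as a value listed under the symbol. The other 2 of the 12, Axin2 and Wnt10b, had an SE above 2 in each mouse table, and the remaining 8 members shared values in at least 1 table with changing or many symbols. Axin2, a feedback target widely used as a readout of beta-catenin signalling, shared its values with 498 symbols at 2 weeks, 699 at 5 weeks and 19 in the clone in the authors' deposited tables, and its change is therefore not read here.

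**Figure D1:**
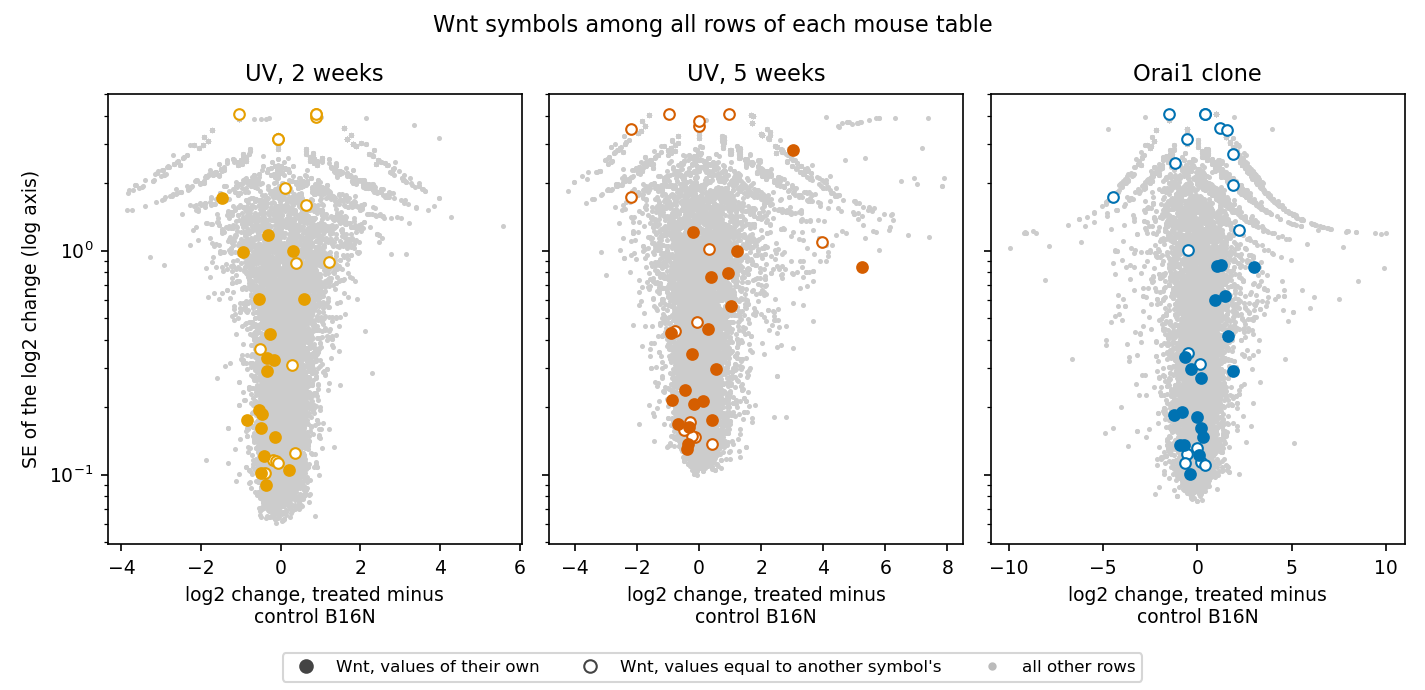
Each point is a row of a mouse table, placed by its log2 change (treated minus control B16N, horizontal) and the SE of that change (vertical, log axis), with Wnt symbols in colour. Wnt symbols with values of their own (filled) lie mostly at an SE of at most 1, while many with values equal to another symbol's (open) lie at the top, where the SE reaches 4.08.

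After 2 weeks of UV several Wnt receptors were lower, after 5 weeks and in the clone both rises and falls were called, and the transcription factor Tcf7l1 was lower in all 3 treated B16N samples. At 2 weeks 6 of 36 Wnt symbols passed, all 6 lower, where 7.67% of all rows passed (3.13% higher and 4.55% lower). The count was 8 with rows of SE at most 0.5 or 0.3 alone and 7 with the median change set to 0, each with 1 higher, the value listed under Wnt7a. The share of all rows that passed in these settings was not computed, so these counts are not set against the 7.67%. At 5 weeks 5 of 35 passed, 2 higher and 3 lower, where 4.78% of all rows passed (3.07% higher and 1.71% lower). In the clone 12 of 38 passed, 4 higher and 8 lower, where 22% of all rows passed (10.3% higher and 11.6% lower). Counting members with values of their own, 5 of 19 passed at 2 weeks beside 8.99% of all such rows, 3 of 20 at 5 weeks beside 5.51%, and 8 of 19 in the clone beside 25.9%. At 2 weeks 0 members passed with a change of at least 2-fold, where 0.348% of all rows did. An unadjusted deposited p under 0.05, at any fold, was held by 10 of 36 members and by 2308 of all 14648 rows. At 5 weeks 2 members passed with at least 2-fold (1.81% of all rows did) and in the clone 5 (6.79%). The median log2 change of members with own values was -0.36 at 2 weeks, -0.011 at 5 weeks and 0.17 in the clone. The median of all rows with own values was 0.020, 0.0069 and 0.033. With shared values included, the members' median was -0.18, -0.13 and 0.14, and that of all rows 0.028, 0.025 and 0.072. With own-value members of SE at most 0.5 alone, the median was -0.32 at 5 weeks and turned to -0.17 in the clone. The median of all rows at that limit was not computed, so these 2 values have no such comparison.

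Of the ligands, Wnt5b and Wnt2b had values of their own in all 3 mouse tables. Wnt5b, a ligand of the branches that do not use beta-catenin, had log2 changes of -0.54 (SE 0.61) at 2 weeks, 1.04 (SE 0.56) at 5 weeks and 1.61 (SE 0.42) in the clone in the authors' deposited tables. It rose 3.06-fold in the clone (adjusted p = 0.001 from the authors' deposited p-values), and neither UV value passed. Wnt2b, a ligand of the beta-catenin branch, passed in none, with 0.30 (SE 0.99), -0.19 (SE 1.21) and 1.03 (SE 0.86) in the same order. Wnt6 had its own values at 5 weeks alone, with an SE of 2.81 and an adjusted p of 0.847.

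Among the receptors 10 of 12 held values of their own. At 2 weeks all 10 of these lay below 0 and 4 passed, where 4975 of all 10415 rows with own values lay below 0 and 8.99% passed. At 5 weeks 5 lay below 0 and 1 passed, near the 5.51% of all such rows. In the clone 5 lay below 0, and 4 passed as lower and 1 as higher, beside 25.9% of all such rows. Fzd2 was lower in each treated sample in the authors' deposited tables, at -0.43 (SE 0.12, adjusted p = 0.00729) at 2 weeks, -0.67 (SE 0.17, adjusted p = 0.00291) at 5 weeks and -0.69 (SE 0.14, adjusted p = 6.11e-06) in the clone. Fzd7, a receptor of the same subfamily as Fzd1 and Fzd2, stood at -0.36 (SE 0.09), -0.38 (SE 0.13) and -0.38 (SE 0.10). Its 3 values were nearly equal, and from the authors' deposited p-values it passed at 2 weeks (adjusted p = 0.00175) and in the clone (adjusted p = 0.00145) but not at 5 weeks (adjusted p = 0.0724). Adjusted over rows of SE at most 0.5 alone, an alternative added after the data were seen, it passed at 5 weeks as well.

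Fzd1, of the same subfamily, passed at 2 weeks, where it was lower, and lay above 0 in the other two samples. It fell at 2 weeks by 0.50 on the log2 scale (SE 0.16, adjusted p = 0.0282), and stood at 0.41 (SE 0.18, adjusted p = 0.207) at 5 weeks and 0.32 (SE 0.15, adjusted p = 0.12) in the clone in the authors' deposited tables. Fzd3, known for axon guidance and planar polarity, fell in the clone by 0.79 on the log2 scale (SE 0.19, adjusted p = 3.05e-04 from the authors' deposited p-values). Its values at 2 weeks (-0.47, SE 0.19) and at 5 weeks (-0.44, SE 0.24) did not pass. Fzd9 had the largest change of any receptor that passed, 1.89 in the clone (SE 0.29, adjusted p = 2.62e-09 from the authors' deposited p-values), which is 3.7-fold higher. It stood near 0 after UV, at -0.27 (SE 0.42) at 2 weeks and 0.29 (SE 0.44) at 5 weeks in the authors' deposited tables.

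Lrp6, a co-receptor needed for the beta-catenin branch, was lower at 2 weeks (-0.49, SE 0.10, adjusted p = 6.46e-05) and in the clone (-0.93, SE 0.13, adjusted p = 2.24e-10) in the authors' deposited tables. In the 5-week sample it stood at -0.32 (SE 0.16) and did not pass. Its close relative Lrp5 lay below 0 in all 3 tables without passing, at -0.35 (SE 0.33) at 2 weeks, -0.89 (SE 0.43) at 5 weeks and -0.65 (SE 0.34) in the clone. Fzd4, Fzd5 and Fzd6 passed nowhere. The largest of these was Fzd6 in the clone (1.44, SE 0.63, adjusted p = 0.0865 from the authors' deposited p-values), and all 3 lay below 0 at 2 weeks and above 0 in the other two tables.

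Among secreted antagonists Dkk3 was the one with values of its own, and it made the largest rise among the Wnt members that passed. Dkk3 belongs to the Dickkopf family by sequence but is a divergent member that is not a typical Lrp5/6 antagonist. Its log2 changes were -1.47 (SE 1.72, adjusted p = 0.906) at 2 weeks, 5.26 (SE 0.85, adjusted p = 1.46e-07) at 5 weeks and 3.01 (SE 0.84, adjusted p = 0.00272) in the clone in the authors' deposited tables. The rises are 38.4-fold at 5 weeks and 8.07-fold in the clone, and with its SE the 2-week value cannot be told from 0. Lyz2, a leukocyte marker, rose in the same 2 samples, and its part in the Dkk3 values was not tested.

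The cytoplasmic components did not pass in any table. Ctnnb1, which encodes beta-catenin, stood at 0.22 (SE 0.11) at 2 weeks, -0.35 (SE 0.14) at 5 weeks and 0.09 (SE 0.12) in the clone in the authors' deposited tables, with adjusted p-values of 0.268, 0.154 and 0.748. Gsk3b, the kinase that phosphorylates beta-catenin, had changes between -0.16 and 0.19. The scaffold gene Axin1 lay between -0.33 and -0.17, and Apc, the tumour suppressor of the same complex, between 0.39 and 0.91 with an SE of 0.60 to 0.76 in the authors' deposited tables.

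Of the transcription factors, Tcf7l1 was lower in every treated B16N sample. Tcf7l1 (also called Tcf3) is known mainly as a repressor of Wnt targets in the absence of signal. It fell at 2 weeks by 0.84 on the log2 scale (SE 0.18, adjusted p = 9.52e-05), at 5 weeks by 0.87 (SE 0.22, adjusted p = 0.00256) and in the clone by 1.25 (SE 0.18, adjusted p = 4.56e-10) in the authors' deposited tables. These are 1.79-fold, 1.83-fold and 2.38-fold decreases, and the 3 comparisons share their control sample. Lef1 had a row in the clone table alone, with an SE of 4.08. The feedback target Znrf3, a ubiquitin ligase that removes Frizzled receptors from the membrane, stood at -0.56 (SE 0.19, adjusted p = 0.0525) at 2 weeks, 0.14 (SE 0.21) at 5 weeks and -0.01 (SE 0.18) in the clone in the authors' deposited tables. Adjusted over rows of SE at most 0.5 alone, Znrf3 passed as lower at 2 weeks.

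**Figure D2:**
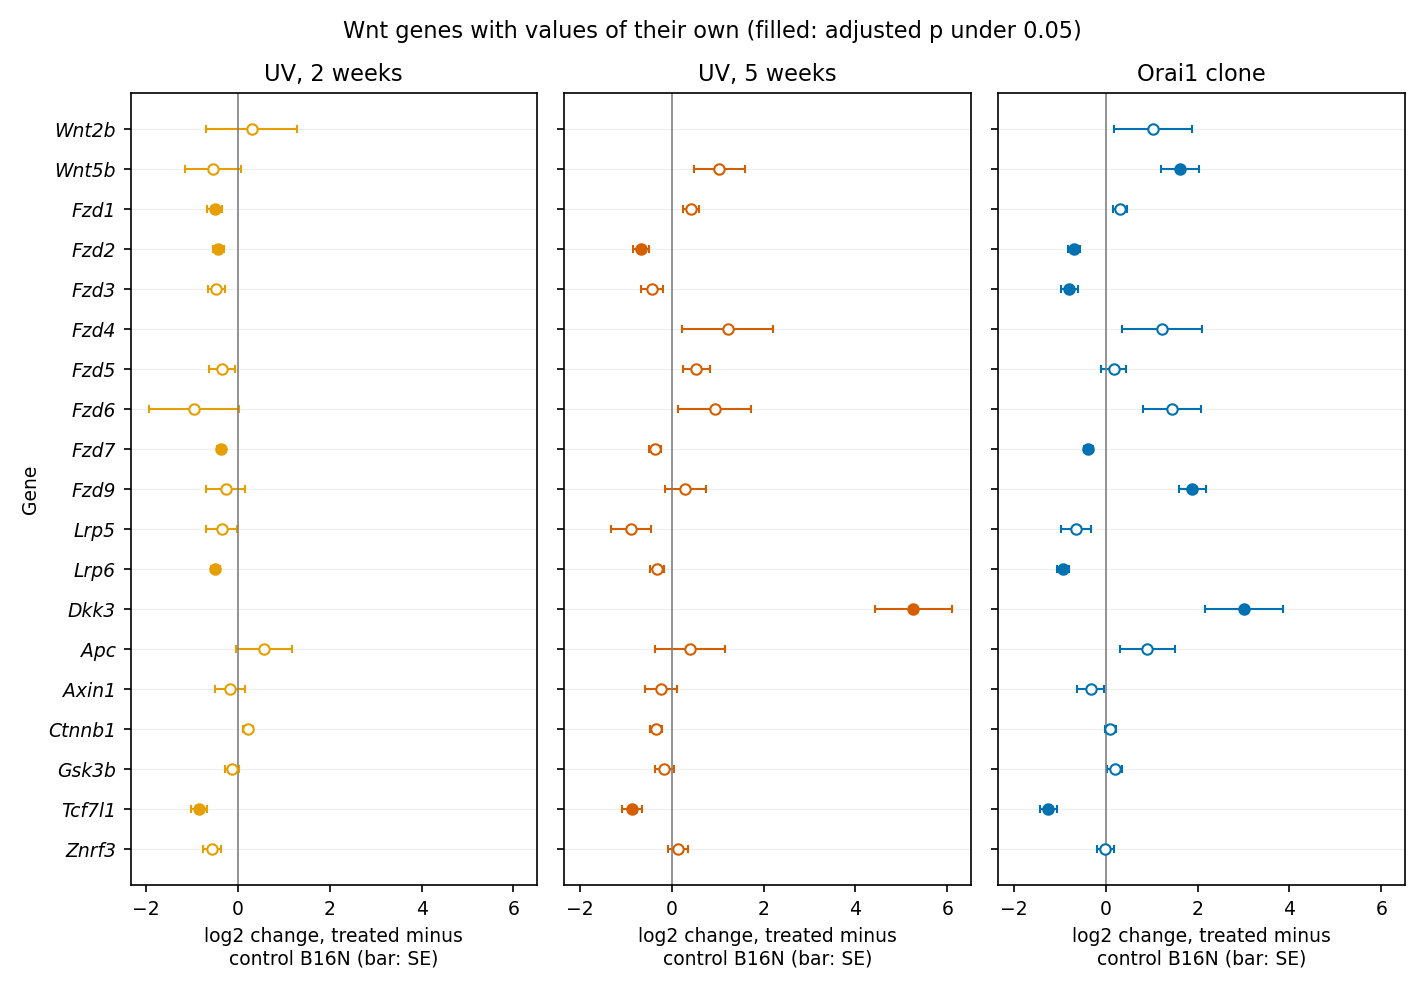
Log2 change (horizontal, treated minus control B16N) of the 19 Wnt genes with values of their own, in role order from ligands to feedback targets, with bars of 1 SE and filled points for an adjusted p under 0.05. Points with an SE above 1 are not drawn. Fzd2 and Tcf7l1 lie left of 0 with filled points in each of the 3 panels, and Dkk3 lies far to the right at 5 weeks and in the clone.

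Values listed under symbols that share them with other genes are given apart. Sfrp2, a secreted Frizzled-related antagonist, was listed at -0.41 (SE 0.10, adjusted p = 0.00177) at 2 weeks, -0.48 (SE 0.16, adjusted p = 0.0486) at 5 weeks and -0.66 (SE 0.11, adjusted p = 8.82e-08) in the clone, and the authors' deposited tables give the same 3 values for Npepps and Wnk2. The 5-week call was lost when the median change of rows with an SE of at most 0.3 was set to 0. Fzd10 (equal to Tcf20) was listed at -0.18 (SE 0.12) at 2 weeks, -0.13 (SE 0.15) at 5 weeks and -0.53 (SE 0.12) in the clone in the authors' deposited tables, and passed in the clone (adjusted p = 2.07e-04). Wnt2 (equal to Serpinb6a) was listed at -0.06 (SE 0.11), 0.40 (SE 0.14) and 0.42 (SE 0.11) in the same order, and passed in the clone (adjusted p = 0.00126 from the authors' deposited p-values). Tcf7, a transcription factor of the same family as Lef1, is listed with the values of Pacsin2, at 0.64 (SE 1.61), 3.95 (SE 1.10) and 2.19 (SE 1.24), and passed as higher at 5 weeks (adjusted p = 0.0104 from the authors' deposited p-values). Wnt5a is listed with the values of Serpine2, at 1.21 (SE 0.89), -2.19 (SE 1.73) and -4.48 (SE 1.74), and passed as lower in the clone (adjusted p = 0.0465 from the authors' deposited p-values). For Tcf7 and Wnt5a the SE of the value that passed was above 1, so no fold is given. Wnt7a, listed with the values of Sdc1 at 0.35 (SE 0.12, adjusted p = 0.0575 from the authors' deposited p-values) at 2 weeks, passed in none, nor did Wnt11, Sfrp4, Tcf7l2 and Nkd1.

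**Figure D3:**
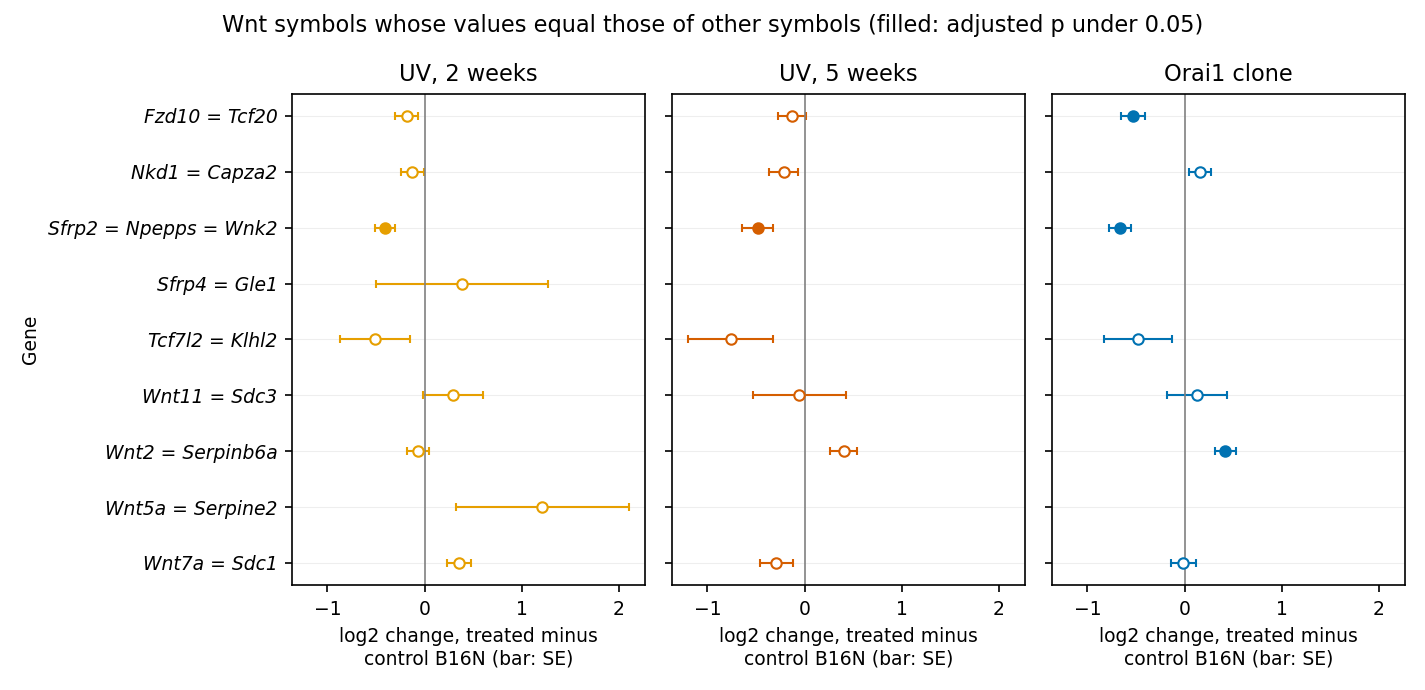
Log2 change (horizontal, treated minus control B16N) listed under Wnt symbols whose values equal those of the other symbols named on the vertical axis, with bars of 1 SE and filled points for an adjusted p under 0.05. Points with an SE above 1 are not drawn. The value listed under Sfrp2 lies left of 0 and is filled in all 3 panels.

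The treated B16N samples were compared with one another by a normal test of the difference of their log2 changes. The control sample's error enters both SEs although the control itself cancels. The intervals are therefore wider than needed, and a difference that was not called is not shown to be absent. Between 5 and 2 weeks of UV 3 of 35 Wnt genes differed, all with values of their own, where 3.33% of all 14083 genes did. Dkk3 was higher at 5 weeks by 6.74 on the log2 scale (95% interval 2.97 to 10.50) and Fzd1 by 0.92 (0.45 to 1.39). Ctnnb1 was lower at 5 weeks, with a difference of -0.56 (-0.90 to -0.22), although neither of its own changes passed. From the authors' deposited changes the adjusted p-values of these differences came to 0.0188 for Dkk3, 0.00741 for Fzd1 and 0.0369 for Ctnnb1. Of the genes that had changed the same way at both times, the difference for Tcf7l1 was -0.04 (-0.58 to 0.51) and that for Fzd2 -0.24 (-0.64 to 0.16), both not called.

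Between the clone and 2 weeks of UV 5 of 35 Wnt symbols differed, where 11.7% of all genes did. Those with values of their own were Fzd9 (2.15 higher in the clone, interval 1.15 to 3.16), Wnt5b (2.15 higher, 0.71 to 3.60) and Fzd1 (0.82 higher, 0.39 to 1.25). From the authors' deposited changes their adjusted p-values came to 6.15e-04 for Fzd9, 0.034 for Wnt5b and 0.00303 for Fzd1. The other two were the values listed under Wnt2 (0.48, 0.17 to 0.79) and Wnt5a, whose SE was above 1. The Lrp6 difference of -0.43 (-0.76 to -0.10) did not pass. Between the clone and 5 weeks of UV 0 of 35 differed by the normal test, where 5.35% of all genes did. The unadjusted p of that test was under 0.05 for 5 of the 35. The share of all genes at that unadjusted limit was not computed, so this count is not set against the 5.35%. Fzd9 was nearest, 1.59 higher in the clone (0.55 to 2.64, adjusted p = 0.051 from the authors' deposited changes), followed by Lrp6 (-0.60, -1.02 to -0.19). With symbols of shared values left out, or with the median change of rows of SE at most 0.3 set to 0, 1 Wnt gene passed there. With an SE of at most 0.5, 2 passed. The share of all genes that passed in these settings was not computed. For Dkk3 the difference, clone minus 5 weeks, was -2.25 with an interval of -4.59 to 0.09.

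**Figure D4:**
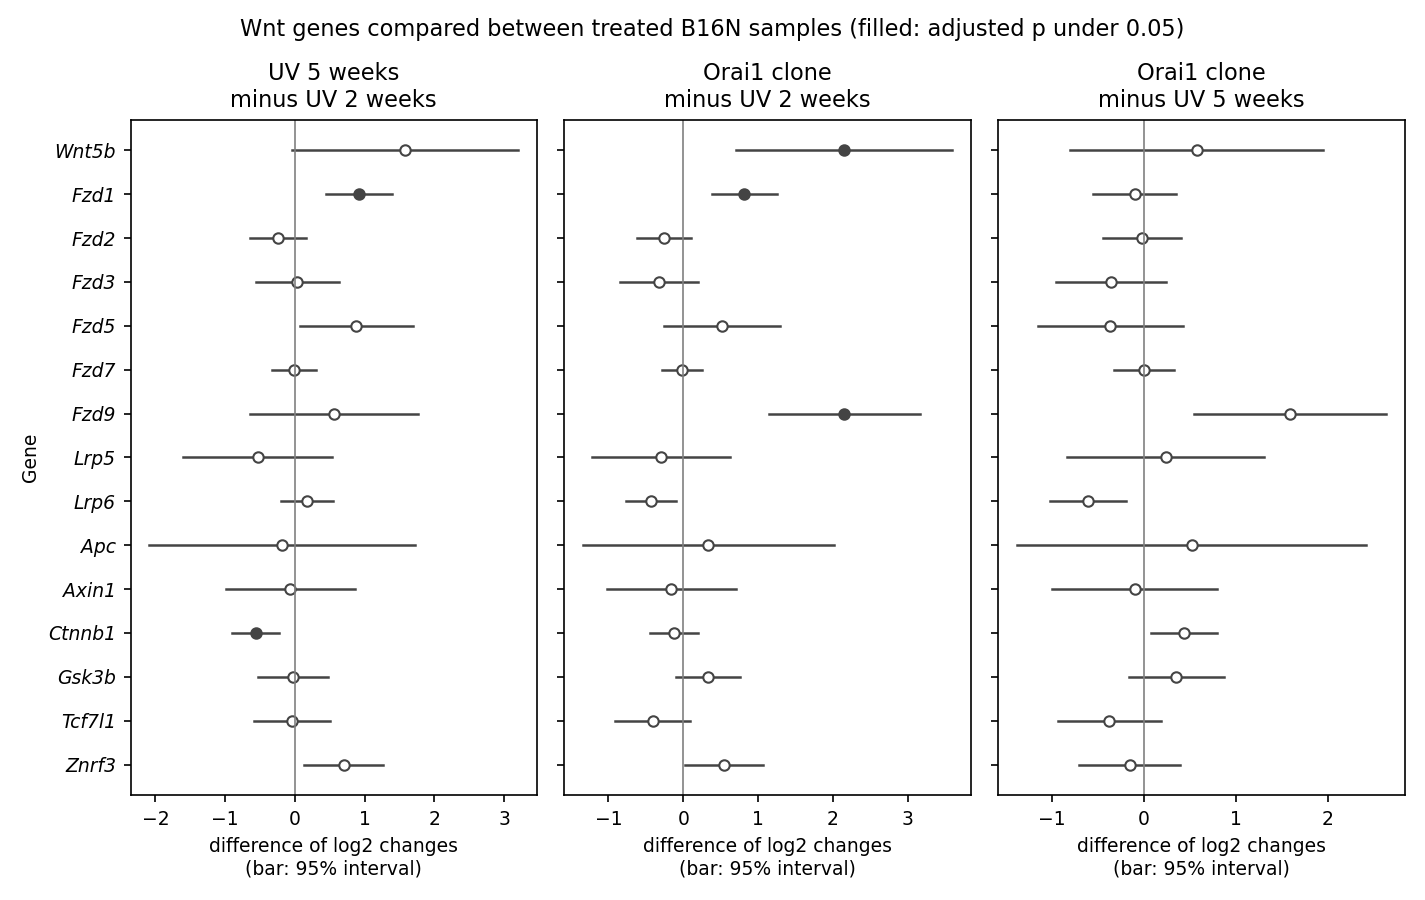
Difference of log2 changes between treated B16N samples (horizontal, with 95% intervals) for Wnt genes with values of their own and an SE of at most 1 in each difference, filled where the adjusted p is under 0.05. Fzd1 is right of 0 in both panels that involve the 2-week sample, and Fzd9 is right of 0 in both panels that involve the clone, filled against 2 weeks. Dkk3 and others with a wider SE are not drawn.

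Of 85 other genes of the pathway, listed by role, 73 had a row in a mouse table. At 2 weeks 6 of 67 passed (2 higher, 4 lower), at 5 weeks 5 of 71 (1 higher, 4 lower) and for the clone 23 of 69 (7 higher, 16 lower), beside the 7.67%, 4.78% and 22% of all rows. Counting genes with own values, 4 of 52 passed at 2 weeks where 8.99% of all such rows did, 5 of 54 at 5 weeks where 5.51% did, and for the clone 20 of 54 where 25.9% did. Sox4, a transcription factor gene regulated by Wnt in several tissues, fell at 2 weeks (-1.12, SE 0.094), at 5 weeks (-1.05, SE 0.13) and in the clone (-0.83, SE 0.10) in the authors' deposited tables. Dct, a melanin enzyme gene that Lef1 and Mitf can activate, rose at 2 weeks (0.72, SE 0.081) and 5 weeks (0.85, SE 0.15) and fell in the clone (-0.61, SE 0.092).

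Of 13 genes listed as Wnt targets 4 passed at 2 weeks (1 higher, 3 lower), 3 at 5 weeks (1 higher, 2 lower) and 8 in the clone (2 higher, 6 lower), beside 7.67% of all rows at 2 weeks, 4.78% at 5 weeks and 22% in the clone. These genes were listed with earlier results of these data known. Ccnd1, which encodes cyclin D1 of the cell cycle, stood in the clone at -1.83 (SE 0.12, adjusted p = 1.64e-49) and Myc, a growth-promoting transcription factor gene, at -0.87 (SE 0.13, adjusted p = 2.66e-09), from the values of the authors' deposited table, and both fell. Myc also fell at 5 weeks (-1.34, SE 0.20), where Ccnd1 stood at -0.13 (SE 0.39). The Notch ligand gene Jag1 (-1.36, SE 0.21) fell in the clone, and Tnfrsf19, a receptor gene known as a Wnt target, rose 2.98-fold there (1.58, SE 0.15). Cd44, an adhesion receptor gene, fell both at 2 weeks (-0.21, SE 0.068) and in the clone (-0.57, SE 0.096) in the authors' deposited tables.

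Of the genes listed as regulators of the destruction complex, 0 of 11 passed at 2 weeks by the adjusted deposited p, where 7.67% of all rows passed. By the unadjusted deposited p it was also 0 of 11, where 2308 of all 14648 rows had a p under 0.05. At 5 weeks 2 of 12 passed and for the clone 3 of 11, each of them lower, where 4.78% and 22% of all rows passed. The adjusted count at 2 weeks and the clone's count are thus near the share of all rows. Csnk1e, a casein kinase gene that acts on Dishevelled and Lrp6, stood at -0.71 (SE 0.15, adjusted p = 1.67e-04) at 5 weeks and -1.38 (SE 0.11, adjusted p = 9.61e-35) in the clone in the authors' deposited tables. Amer1, which anchors Apc at the membrane, stood at -1.05 (SE 0.22) and -1.84 (SE 0.19) in these tables, and both passed. Neither gene passed at 2 weeks, with Csnk1e at 0.04 and Amer1 at -0.10. The differences between 5 and 2 weeks passed, at -0.76 for Csnk1e (adjusted p = 0.0014) and -0.95 for Amer1 (adjusted p = 0.0172), from the authors' deposited changes.

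In the clone, the R-spondin receptor gene Lgr6 (-2.43, SE 0.45) and the Dishevelled regulator Dact1 (-2.47, SE 0.58) had the largest falls among the 16 of these other pathway genes that passed as lower in the authors' deposited table. The formin gene Daam1 of the planar polarity branch fell by 1.33 on the log2 scale (SE 0.42), and Wls, which carries Wnt ligands to the cell surface, rose (0.42, SE 0.12). The value listed under Frzb, a secreted Frizzled-related antagonist, was 2.11 (SE 0.21), and B4galt1 has the same value. Rac1 fell at 2 weeks (-0.35, SE 0.066) and in the clone (-0.36, SE 0.078) in the authors' deposited tables.

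**Figure D5:**
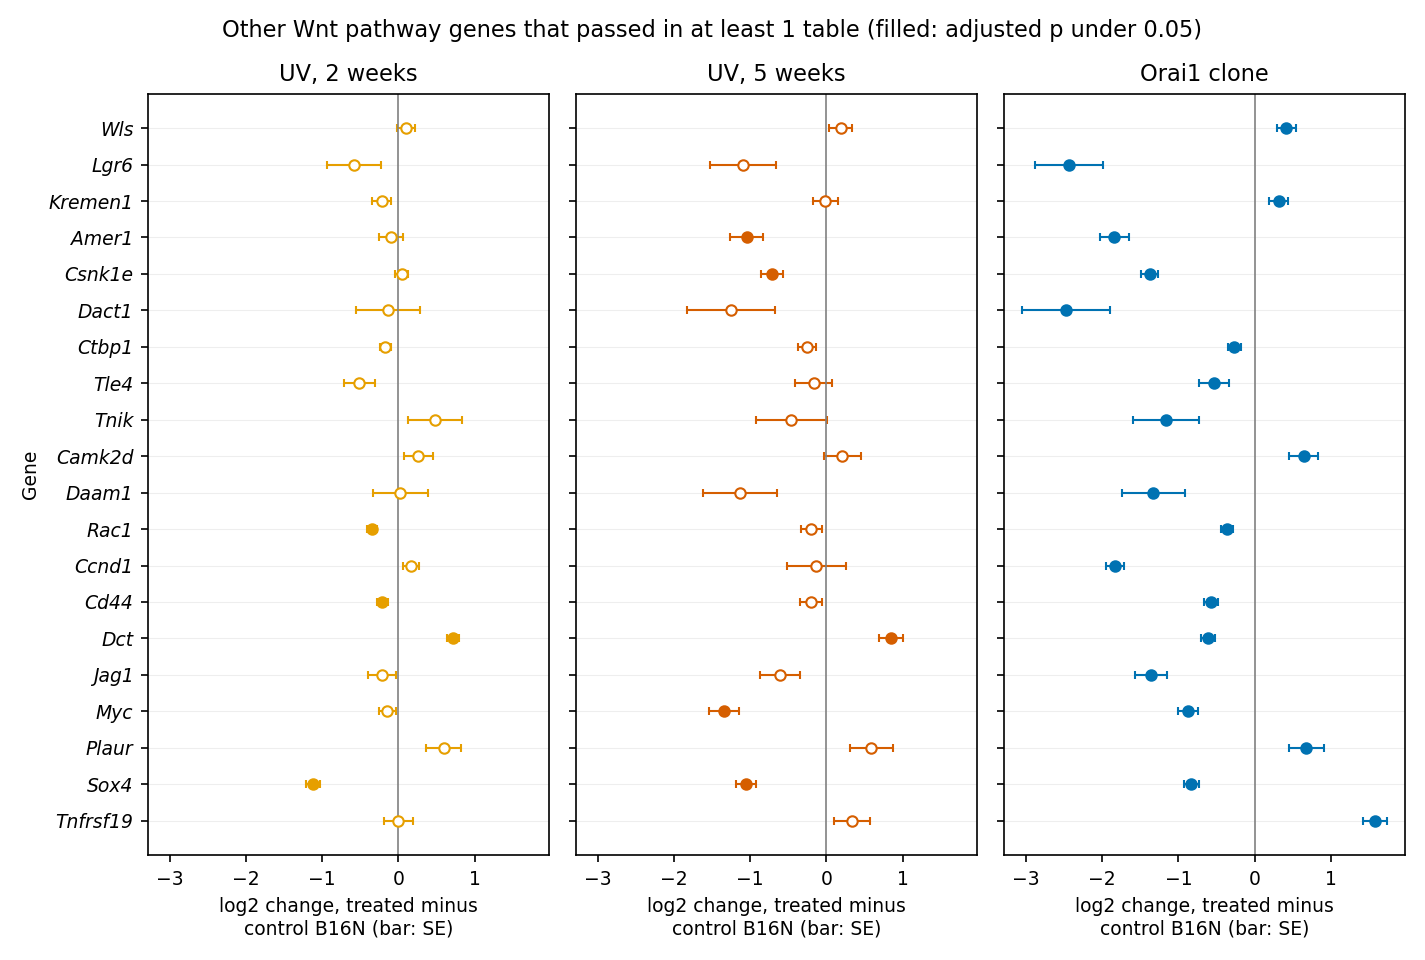
Log2 change (horizontal, treated minus control B16N) of 20 other Wnt pathway genes with values of their own that passed in at least 1 table, with bars of 1 SE and filled points for an adjusted p under 0.05. Sox4 lies left of 0 in all 3 panels, Dct lies right of 0 after UV and left of 0 in the clone, and Csnk1e and Amer1 lie left of 0 at 5 weeks and in the clone.

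The human tables held 420 rows each, for the same 420 symbols. In that of WM983, 419 of the 420 values were at least 1 in size on the log2 scale, so its rows had been chosen by their change in WM983, and their size there is no finding. LRP5 and TCF7L1 were the Wnt members with a row. The direction of the human comparisons is not given, so signs are as deposited. In the authors' deposited table for WM983, LRP5 stood at 1.25 and TCF7L1 at 1.31, each with the lowest p in that table, 5e-05, which 351 rows had. In the authors' deposited table for UACC257, LRP5 stood at -0.19 (deposited p = 0.228) and TCF7L1 at 0.11 (deposited p = 0.491), where 10% of rows had a deposited p under 0.05. LRP5 thus had opposite signs in the lines and TCF7L1 the same sign, and neither had a deposited p under 0.05 in UACC257. Of the other pathway genes, PTK7 (2.05), CCND1 (-1.79), TLE3 (-1.66) and GSK3A (-1.21) had a row in the authors' deposited table for WM983, and their values in UACC257 lay between -0.28 and 0.27.

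LRP5 and TCF7L1 are the members present in all 5 tables, and the 250 bases before their annotated starts are shown for that reason, from RefSeq on GRCh38.p14 and on the plus strand, 5′ to 3′. Capitals mark the GC box GGGCGG, searched on both strands. The LRP5 stretch is chr11:68312341-68312590 and the TCF7L1 stretch is chr2:85133142-85133391.
LRP5: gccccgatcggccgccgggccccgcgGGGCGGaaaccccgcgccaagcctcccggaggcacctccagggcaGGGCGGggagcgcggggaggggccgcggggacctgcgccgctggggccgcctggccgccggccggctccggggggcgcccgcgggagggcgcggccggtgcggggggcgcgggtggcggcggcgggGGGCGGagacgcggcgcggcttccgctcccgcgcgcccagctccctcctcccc
TCF7L1: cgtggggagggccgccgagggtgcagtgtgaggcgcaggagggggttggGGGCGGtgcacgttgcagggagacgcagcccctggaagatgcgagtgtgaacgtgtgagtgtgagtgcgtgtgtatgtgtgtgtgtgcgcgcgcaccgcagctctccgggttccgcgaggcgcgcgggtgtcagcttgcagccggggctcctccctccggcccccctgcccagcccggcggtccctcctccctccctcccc
The GC box occurs 3 times in the LRP5 stretch and once in that of TCF7L1, and 42.6% of 35116 human promoter stretches of this length hold it. The letters CTTTGAT and CTTTGAA, forms of the site bound by Tcf and Lef proteins, were searched on both strands and are in neither window, and 5.94% of all stretches hold at least 1 of them. The LRP5 stretch is 87.2% G or C and that of TCF7L1 72%, where the median of all stretches is 58%.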

How the data were processed

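RNA-seq comparisons of 8 samples were read from 5 deposited tables, which per the file headers give for each gene symbol a log2 fold change, a p-value and a test statistic (taken as a score). The aligner, counter and test are not given in the sources used here. GRCm38 is the build in the submitters' processing notes, also for the human samples. Per the labels, the human UV samples are titled UV3 but timed week 2, and the time was used. The growth protocol in the labels describes B16N for all samples.

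The deposited log2 sign was turned in the mouse tables, because all 1357 genes with a row in a single mouse table had a negative deposited value. The deposited mouse p-value is that of a normal test on the score, two-sided, so SE is log2 change divided by score. Left out were 1 row with the symbol NA per mouse table and 3 clone rows lacking a p-value. No fold was given where SE was above 1. Members were named where they passed in a comparison or a difference or had a human row, with the largest not passing in a role. Other pathway genes were named up to 6 per comparison by size. Jag1, Daam1, Wls, Dvl1 and Celsr1 were named outside this rule, after their values were seen, as were members given with ranges. The members and lists were chosen with earlier results of these data known. The procedure was tested on simulated data. Alternatives were an adjusted p under 0.01, 1.5-fold and 2-fold minimums, an SE of at most 0.5 or 0.3, shared values left out or included (for single genes, this and the SE limit were added after seeing the data), and centring on the median of rows of SE at most 0.3. Python 3.11.15, numpy 2.4.6, pandas 2.3.3, scipy 1.17.1 and matplotlib 3.10.9 were used.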

Additional observations from a re-analysis of the deposited data

Results flagged for a closer look

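Changes of 3 Wnt genes differed between 5 and 2 weeks of UV in B16N by the normal test of the difference, with values given in the text. These were Dkk3 (6.74 on the log2 scale, SE 1.92), Fzd1 (0.92, SE 0.24) and Ctnnb1 (-0.56, SE 0.17). The Dkk3 difference includes a 2-week value with an SE of 1.72. LRP5 had a deposited value of 1.25 in WM983 and of opposite sign, -0.19, in UACC257. That difference was not tested, and the WM983 rows had been chosen by their change.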

How the results depend on the processing

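No paired analysis was possible because each group had 1 sample, and no replicate could be left out. Counts of members called at 2 weeks (6) became 1 with a 1.5-fold and 0 with a 2-fold minimum, 8 with an SE of at most 0.5 or 0.3 and 7 with centring, 1 of them higher in each of these 3. Of all rows, 0.348% were called with 2-fold at 2 weeks, 1.81% at 5 weeks and 6.79% in the clone. For the other settings, and for the differences below in any alternative setting, the share of all rows called was not computed. At 5 weeks (5) they became 3 at an adjusted p under 0.01, 2 with 2-fold and 3 with shared values left out. In the clone (12) they became 5 with 2-fold. With 2-fold, the other pathway genes called numbered 2 rather than 6 at 2 weeks, 3 rather than 5 at 5 weeks and 10 rather than 23 for the clone. These are out of 67, 71 and 69 genes with a row, beside the 2-fold shares of all rows just given. Members differing between 5 and 2 weeks (3) became 1 at an adjusted p under 0.01 (Fzd1) and 1 with 2-fold (Dkk3). Between the clone and 2 weeks (5) they became 2 at an adjusted p under 0.01 and 3 with 2-fold, an SE of at most 0.5 or shared values left out. Between the clone and 5 weeks (0) they became 2 with an SE of at most 0.5, and 1 with shared values left out or with centring. The median change in the clone (0.17) was -0.17 with an SE of at most 0.5, where the members of larger SE are left out. The other causes were not tested. Depth is unknown, so rows of large SE cannot be traced to read counts. With an SE of at most 0.5, chosen for single genes after seeing the data, Fzd7 and the value listed under Wnt2 passed at 5 weeks. With the same limit, Znrf3 (lower) and the value listed under Wnt7a (higher) passed at 2 weeks.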

Other observations

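Equal values are not particular to the Wnt symbols. Of 13935 symbols with a row in all 3 mouse tables, 2191 had all 3 sets of values equal to those of 1 to 5 other symbols, in 1034 groups of which 962 were pairs. Among the 8478 symbols with an SE of at most 0.5 in all 3 tables, 1290 (15.2%) did so. Other pathway symbols of this kind were Dvl1 with Supt6 (listed at 0.88, SE 0.14, in the clone), Nrcam with Klhl29 (-1.04, SE 0.26, at 2 weeks), Daam2 with Tmem256 (0.72, SE 0.14, at 2 weeks) and Celsr1 with Zfp207 (-0.46, SE 0.13, in the clone) in the authors' deposited tables. Each of these passed in the comparison named.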
